A study of Mus musculus with 6 samples.

Results

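Distal regions with an ATAC-seq peak in L-EPSCs, and with none in ESCs or D-EPSCs, numbered 9814 of 50641 distal regions and of 65518 regions in all. ATAC-seq maps accessible chromatin through the cuts of the Tn5 transposase. The 3 cell states were J1 mouse embryonic stem cells (ESCs, strain 129SV) and expanded potential stem cells (EPSCs) converted from them by the protocol of the Deng group (D-EPSCs) or of the Liu group (L-EPSCs). ESCs grew in serum with LIF and 2i, which pairs the GSK3 inhibitor CHIR99021 with the MEK inhibitor PD0325901. D-EPSCs grew in N2B27 and KSR with LIF, CHIR99021, dimethindene maleate and minocycline hydrochloride. L-EPSC medium was based on KSR and contained LIF, both inhibitors of 2i, the tankyrase inhibitor XAV939 (which acts on the Wnt pathway), the Src family inhibitor A-419259, JNK inhibitor VIII and the p38 inhibitor SB203580. All 3 states thus shared LIF and CHIR99021, and came from 1 ESC line. Per the methods, D-EPSCs and L-EPSCs were passaged without feeder cells before the assay, and for ESCs, which could be kept on feeders or gelatin, the surface is not given in the sources used here. Marker expression was not part of these data, so cell identity was taken from the labels. Each state had 2 technical replicates, which were already combined in 1 peak list.

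The members were selected on the peak calls themselves. Peaks of the 3 lists that shared at least 1 bp were merged, a region was kept when it held a peak of the L-EPSC list only, and its midpoint had to lie more than 1 kb from every start of a protein-coding transcript. That a member has no peak in ESCs or D-EPSCs is therefore the definition of the class and not a result. Each member consisted of a single L-EPSC peak. Regions with an L-EPSC peak only made up 15.8% of all regions, and members made up 19.4% of distal regions. They were 95% of the L-EPSC only regions and 21.1% of the 46601 L-EPSC peaks, and together covered 2.5 Mb. Absence of a peak in a list does not show closed chromatin, since a weak signal under the caller's threshold also leaves no peak.

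Distal accessible regions include enhancers, which bind transcription factors and act on promoters over a distance, and insulator sites, which are bound by CTCF and anchor chromatin loops. In mouse pluripotent cells, enhancers are bound by Oct4 and Sox2 together with factors of the naive state. Esrrb and Nr5a2 are orphan nuclear receptors that recognise an extended half-site, and Klf2, Klf4 and Klf5 recognise a GGGTG box. Retinoic acid receptors pair with RXR and bind direct repeats of the same half-site, and Zfp281 binds a run of C and T bases and takes part in the exit from the naive state.

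Among the words that were more frequent in members than in the D-EPSC only regions were those of the KLF factors, GGGTGTGG, and of Esrrb, TCAAGGTCA. Both occurred within the 400 bp around the midpoint in 26 members. From the widest of these, 4 were chosen after their words were known and are printed on the forward strand (+) of mm9, because they show how the 2 words lie within a single region. Capitals mark the words, which may lie on either strand.
Member near Grifin, chr5:141044479-141044712: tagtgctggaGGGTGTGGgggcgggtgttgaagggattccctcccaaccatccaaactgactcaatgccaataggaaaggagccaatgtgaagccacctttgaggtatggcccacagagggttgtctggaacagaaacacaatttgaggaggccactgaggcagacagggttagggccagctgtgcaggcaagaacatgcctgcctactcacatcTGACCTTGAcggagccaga
Member near Ctnnbl1, chr2:157495861-157495944: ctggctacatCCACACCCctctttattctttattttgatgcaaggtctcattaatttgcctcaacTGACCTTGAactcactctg
Member in Igfbp2, chr1:72874635-72874762: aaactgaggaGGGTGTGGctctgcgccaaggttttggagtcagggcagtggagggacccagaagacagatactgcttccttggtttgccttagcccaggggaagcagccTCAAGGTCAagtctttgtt
Member near Kng2, chr16:23030932-23030975: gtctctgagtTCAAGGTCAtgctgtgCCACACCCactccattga

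The CTCF core was written as CCNNNAGGGGGC. From the widest members with the core within 50 bp of the midpoint, 3 are printed (mm9, +), with the core in capitals, to show the sequence around it. They were chosen for a central core, so their position is no result.
CTCF member near Psmg3, chr5:140314548-140314607: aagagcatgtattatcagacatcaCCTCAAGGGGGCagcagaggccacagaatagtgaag
CTCF member in Dst, chr1:34221662-34221721: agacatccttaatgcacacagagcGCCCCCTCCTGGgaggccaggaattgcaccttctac
CTCF member in Pdia5, chr16:35429912-35429971: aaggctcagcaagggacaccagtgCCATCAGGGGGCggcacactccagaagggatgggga

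A direct repeat of AGGTCA with 5 bases between the copies (DR5, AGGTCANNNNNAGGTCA) is the best known site of the retinoic acid receptor with RXR. It was present in the window of 7 members. The 6 widest are shown (mm9, +), with the repeat in capitals, because they carry the strict form of the element. In the member 32.3 kb from Tbx3 the repeat lay just outside the peak but within the 400 bp.
DR5 member 40.1 kb from a start of Tbx3, chr5:120171052-120171108: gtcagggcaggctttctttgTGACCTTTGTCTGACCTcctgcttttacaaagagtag
DR5 member in St7, chr6:17756789-17756845: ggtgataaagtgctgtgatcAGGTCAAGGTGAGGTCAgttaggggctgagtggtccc
DR5 member in Abhd2, chr7:86505114-86505142: tcccagTGACCTGGATCTGACCTcatacc
DR5 member in Fam83d, chr2:158603740-158603796: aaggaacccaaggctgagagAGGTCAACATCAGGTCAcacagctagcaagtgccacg
DR5 member near Crbn, chr6:106770705-106770761: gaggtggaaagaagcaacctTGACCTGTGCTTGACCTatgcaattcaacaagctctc
DR5 member 32.3 kb from a start of Tbx3, chr5:120163182-120163238: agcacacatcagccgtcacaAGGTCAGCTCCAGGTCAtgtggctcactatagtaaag

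Peaks numbered 46601 in the L-EPSC list, against 50225 for D-EPSCs and 28965 for ESCs. They gave the coordinates of each peak on mm9 and no height, score or value per replicate. No test between replicates could be made, and every interval below covers counting error only. Read depth is unknown here, so the extent to which list length follows depth was not tested. The members are compared below with 4 other classes of distal region. These are the 13370 D-EPSC only, the 3209 ESC only and the 9721 regions of both EPSC lists, and the 11342 regions of all 3 lists. The D-EPSC only regions are the closest counterpart, being selected in the same way from a list of similar length.

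Members were narrow. Their median width was 210 bp (95% interval 207 to 213, interquartile range 142 to 317), against 218 bp (215 to 221) in D-EPSC only regions and 232 bp (224 to 240) in ESC only regions. Regions of all 3 lists were wider, with a median of 566 bp (560 to 573), partly by construction since they join several peaks. The L-EPSC peaks inside those shared regions alone had a median of 405 bp. Exactly 118 bp or 121 bp was the width of 1356 members, or 13.8%, while 1.59% of L-EPSC peaks that lay in distal regions shared by all states had these widths. The D-EPSC only regions had the same feature, with 13.5% at exactly 119 bp or 117 bp. These were the most frequent exact widths of the L-EPSC and D-EPSC lists, and lay at or near the narrowest peak of each. Members over 1000 bp numbered 17. Membership depended on which peaks entered the lists. When the lists were cut to their 28965 widest peaks, as many as ESCs had, 4992 regions met the definition, of which 3081 were members (31.4% of the members) and 1911 were not. The difference in width between exclusive and shared regions is a description of the calls and was not tested.

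**Figure D1:**
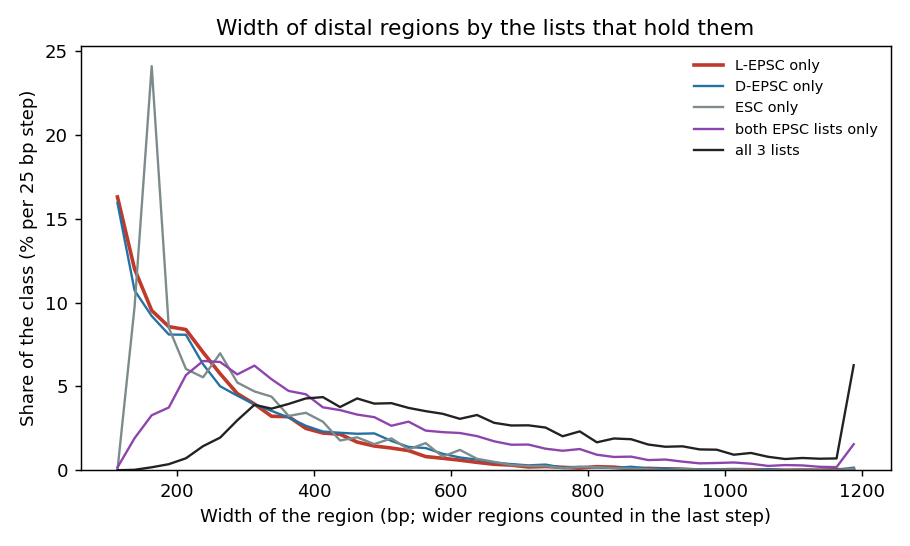
Width of distal regions in bp (x axis, steps of 25 bp, all widths of 1175 bp or more in the last step) against the share of each class in percent (y axis), for the 5 classes of distal region. The curve of the members follows that of the D-EPSC only regions, with most regions under 300 bp, and lies left of the curve of the regions in all 3 lists, whose median was 566 bp.

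Close to the limits of the definition, 30 members had their midpoint at most 100 bp beyond the limit of 1 kb from a coding start, and 34 L-EPSC only regions lay at most 100 bp inside it and were left out. A start of another biotype lay within 1 kb of 383 members. On the side of the overlap, 49 L-EPSC peaks were left out that shared only 1 to 10 bp with a peak of another list. By definition no member overlapped a peak of another state, and distances to the nearest such peak were taken for members only. The nearest peak of either other list was a median of 7.78 kb away (7.5 to 8.0), and 455 members (4.64%) had such a peak within 500 bp. For the D-EPSC list the median was 8.71 kb and for the shorter ESC list 16.4 kb. A further 410 members (4.18%) had no peak of either list within 100 kb.

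With respect to genes, 45.6% of members lay in introns of coding genes (44.6 to 46.5), 6.68% in their exons, 3.10% only in a non-coding gene or pseudogene, and 44.7% between genes. The intronic share exceeded that of D-EPSC only regions by 3.07 points (1.12 to 5.02, interval adjusted for 16 comparisons of places) and that of regions in all 3 lists, 37.1%, by 8.43 points (6.43 to 10.4). It exceeded that of regions in both EPSC lists by 5.08 points (2.98 to 7.16), and against ESC only regions the difference was 2.02 points (-0.97 to 4.99). Exonic shares were 6.68% in members and 6.75% in D-EPSC only regions, a difference of -0.06 points (-1.04 to 0.93). They were 3.10 points higher in members than in ESC only regions (1.79 to 4.26), and the difference from regions in both EPSC lists was -1.50 points (-2.62 to -0.39). The median distance from a midpoint to a coding start was 25.1 kb (24.3 to 25.9) in members and 25.7 kb (25.1 to 26.4) in D-EPSC only regions. It was 20.8 kb (20.1 to 21.6) in regions of both EPSC lists and 31.4 kb (30 to 33.4) in ESC only regions. Of the members, 10.9% lay 1 to 5 kb from a start, 58.8% lay 5 to 50 kb away, 28.5% lay 50 to 500 kb away and 1.84% lay farther.

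The gene nearest to a member usually had an accessible promoter in every state. A peak of all 3 lists lay within 1 kb of a start of the nearest coding gene for 63.9% of members (63.0 to 64.9), and for 60.6% (59.8 to 61.4) of D-EPSC only regions. No list had a peak there for 19.7% of members. A start with a peak in the L-EPSC list alone was rare, at 96 members or 0.978% (0.802 to 1.19), and the share next to D-EPSC only regions was 0.845% (0.704 to 1.02).

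Members were spread over the genome, and 2037 of 2649 bins of 1 Mb (76.9%) held at least 1. The nearest other member was a median of 43.0 kb away, and 889 members (9.06%) had another within 5 kb. The bin with most members was chr17:66000001-67000000, with 23, beside 12 D-EPSC only regions and 9 regions of all 3 lists. Chromosome 8 held 962 members, or 9.80%, although it has 4.99% of the length of the chromosomes used. Its 7.30 members per Mb were the highest of the autosomes, whose median was 3.78. Other classes had high shares on the same chromosome, from 7.42% of regions in both EPSC lists to 8.89% of D-EPSC only regions. The X chromosome was at the opposite end with 62 members, or 0.632%, against 1.20% of D-EPSC only and 1.41% of regions in all 3 lists. Between members and D-EPSC only regions, the share was lower in members on chromosomes 7 (4.88% against 6.52%), 12 (3.39% against 4.26%) and X by intervals adjusted over 20 chromosomes, and on none was it higher. Copy number of the chromosomes was not analysed here.

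To ask which transcription factor sites the members carried, 28 consensus words and 9 spacings of a relaxed direct repeat were searched in 400 bp around each midpoint. A window counted once, whichever strand held the word. Shares in members were compared with those in the other 4 classes by Newcombe intervals, adjusted for the 148 comparisons. Against the D-EPSC only regions, the interval lay above 0 for 5 of the 37 words and spacings (13.5%) and below 0 for 2 (5.41%). The 5 that were more frequent in members were the KLF site, the ESRRB site, the CTCF core and the relaxed direct repeats with spacings of 0 and 2. The SP site and the ZFP281/MAZ site were less frequent.

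The KLF word had the largest difference from D-EPSC only regions in percentage points, while by ratio (1.84) words such as the ESRRB site (2.28) and the spacing 0 repeat (2.43) stood higher. It was present in 924 members, or 9.42% (95% interval 8.85 to 10.0), and in 5.12% of D-EPSC only regions, a difference of 4.29 points (adjusted interval 3.05 to 5.57). Its share in members was also above that in ESC only regions (6.82%), regions of both EPSC lists (7.57%) and regions of all 3 lists (6.86%), each with an adjusted interval above 0. It was the only word or spacing with such intervals against all 4 classes. Over all distal regions the share was 7.10%, and in windows 1 kb to either side of the members it was 3.75%. The same word read backwards, which keeps its base composition, was present in 4.2% of members and 3.95% of D-EPSC only regions. It shares a run of 7 bases with the KLF word and is therefore not a clean control.

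The ESRRB word, which Nr5a2 also recognises in its core, was present in 241 members (2.46%) and 1.08% of D-EPSC only regions, a difference of 1.38 points (0.756 to 2.06). Shares in the other classes lay between, at 1.93% in ESC only, 1.80% in both EPSC lists and 1.83% in all 3 lists, and their adjusted intervals included 0. The flanks of the members held it in 1.29% of windows, more than the D-EPSC only regions did. Members with both the ESRRB and KLF words numbered 26 (0.265%, 0.181 to 0.388), and D-EPSC only regions with both numbered 5 (0.0374%, 0.0160 to 0.0875). Each word alone was also more frequent in members, and whether the words occur together beyond that was not tested. The octamer, which did not differ by itself, occurred with the KLF word in 25 members and 7 D-EPSC only regions. The ESRRB word, the KLF word or both occurred in 1139 members, or 11.6% (11 to 12.3), against 6.16% of D-EPSC only regions.

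The CTCF core occurred in 383 members, or 3.90%, against 2.35% of D-EPSC only regions (difference 1.55 points, 0.729 to 2.43) and 2.06% of ESC only regions. It was no more frequent than in shared regions, at 4.83% in both EPSC lists and 4.08% in all 3 lists. The flanks of members held it in 0.352% of windows and the reversed word was in 0.0917% of members. Among regions at or above the median width, the difference from D-EPSC only regions was 0.93 points and its interval included 0 (-0.09 to 2.05). NRF1, an activator of genes of mitochondria that binds a CpG-rich word, had its word in 45 members (0.459%) and 0.217% of D-EPSC only regions, a difference of 0.24 points (-0.03 to 0.58).

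The words of SP factors, GGGGCGGGG, and of ZFP281/MAZ, CCCCTCCCC, were less frequent in members. The SP word is also a site of KLF factors, so words of KLF factors differed in direction against the D-EPSC only regions. The SP word was in 2.17% of members and 4.26% of D-EPSC only regions (difference -2.09 points, -2.91 to -1.26), and the ZFP281/MAZ word was in 4.71% and 8.28% (difference -3.57 points, -4.71 to -2.41). Both were also less frequent in members than in regions of both EPSC lists and of all 3 lists, while the shares in ESC only regions (1.68% and 4.55%) did not separate from those in members. These words read the same backwards, so they have no reversed control. Their G and C content is high, and members had a lower GC content, with a median of 49.8% (49.5 to 49.8) against 51.5% (51.3 to 51.5) in D-EPSC only regions and 45.3% in the flanks of members. With the D-EPSC only regions weighted to the GC content of the members, all 7 differences kept their direction and their intervals still left out 0, and the NRF1 site joined those higher in members. The SP difference shrank with this weighting to -1.23 points (-2.02 to -0.43) and the ZFP281/MAZ difference to -2.42 points (-3.55 to -1.27), while the KLF difference was 4.65 points (3.40 to 5.93).

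**Figure D2:**
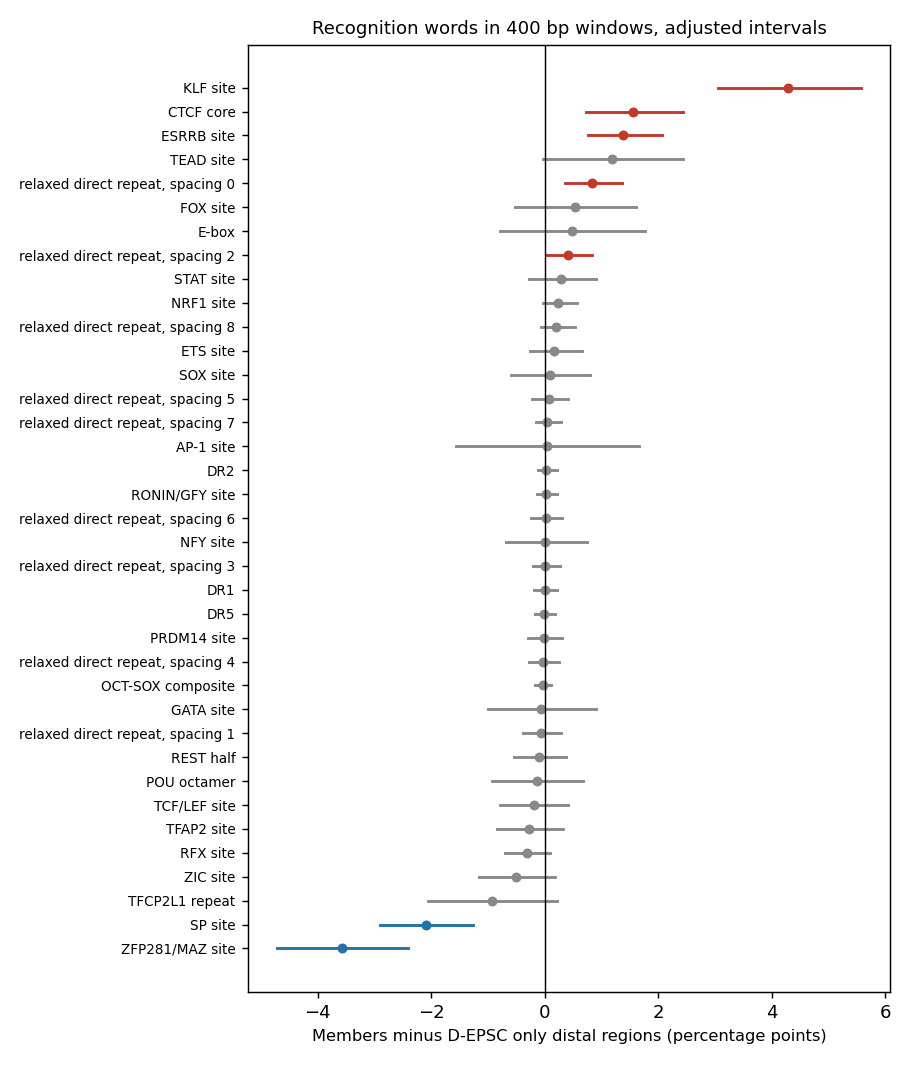
Difference between the share of members and the share of D-EPSC only distal regions with a word in the 400 bp around the midpoint (x axis, percentage points), for the 37 words and spacings (y axis). Points are differences and lines their intervals adjusted for 148 comparisons, with red for the 5 above 0, blue for the 2 below 0 and grey for the rest. The KLF site lies farthest right at 4.29 points and the ZFP281/MAZ site farthest left at -3.57 points.

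Sites of Oct4 itself were not more frequent. The POU octamer was in 279 members (2.84%) and 2.98% of D-EPSC only regions, a difference of -0.14 points (-0.93 to 0.68). It was less frequent in members than in regions of all 3 lists, where it reached 4.13%. The same held for the TFCP2L1 repeat, with 5.67% in members and 7.25% in all 3 lists, and for the NFY site, with 2.26% and 3.14%. The joint site of Oct4 and Sox2 was found in 2 members (0.0204%) and 0.0598% of D-EPSC only regions, a difference of -0.04 points (-0.18 to 0.11). The SOX site was in 2.17% and 2.09%, a difference of 0.08 points (-0.59 to 0.80). The TCF/LEF site, where Wnt signalling acts, was in 1.48% of members and 1.68% of D-EPSC only regions, and in 2.90% of ESC only regions, the class above the members by an adjusted interval. The TEAD site, bound by effectors of Hippo signalling, was in 7.73% of members and 6.54% of D-EPSC only regions, with an interval just including 0 (difference 1.19 points, -0.03 to 2.44). The AP-1 site, bound by Fos and Jun, differed by 0.03 points (-1.57 to 1.66), at 13.2% in both classes. The E-box, bound by factors such as Myc and Usf, was in 7.94% of members and 7.46% of D-EPSC only regions, and against the ESC only regions alone (4.95%) its interval lay above 0.

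**Figure D3:**
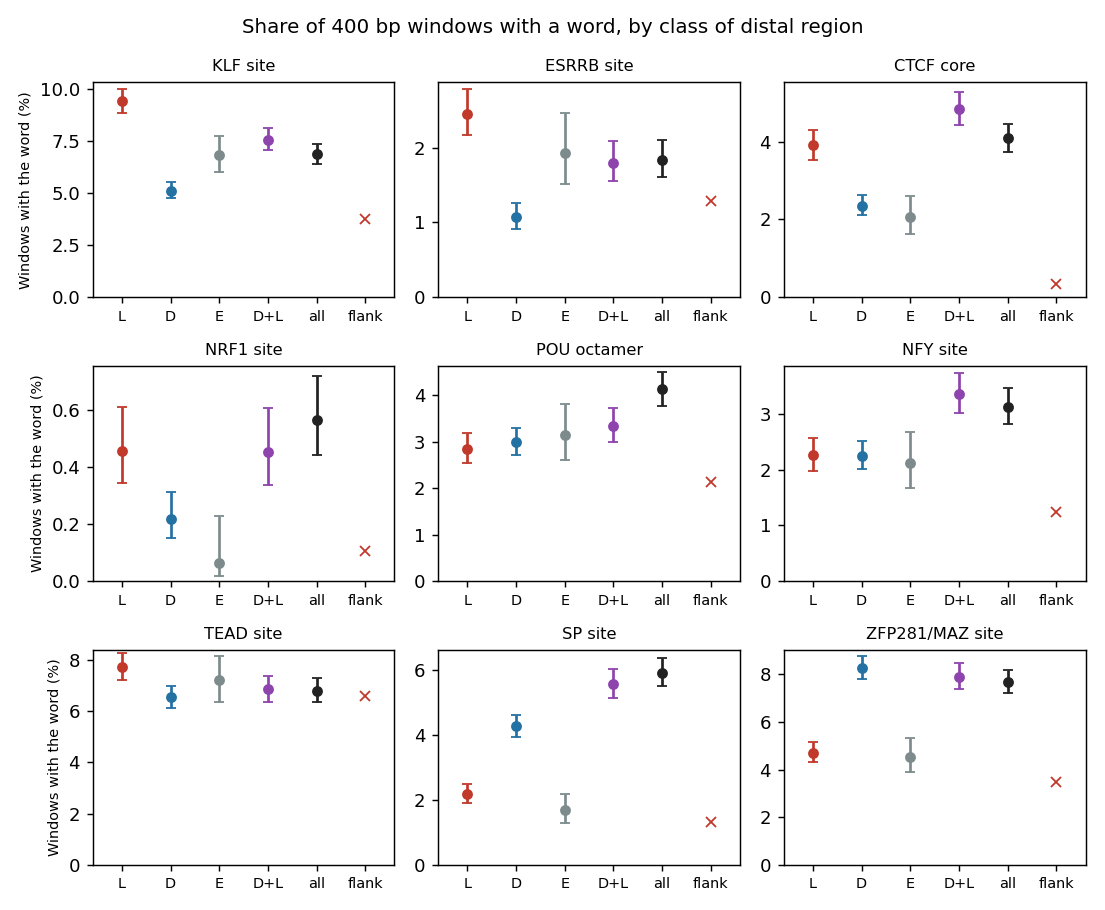
Share of 400 bp windows that hold a word (y axis, percent) in members (L), D-EPSC only (D), ESC only (E), both EPSC lists (D+L) and all 3 lists (all), with 95% Wilson intervals as bars, and in windows 1 kb to either side of the members (flank, cross, no interval drawn), for 9 words. The KLF site is highest in members at 9.42%, whereas SP and ZFP281/MAZ sites are low in members and ESC only regions, and the CTCF core is high in members and both shared classes.

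Among direct repeats with a relaxed half-site, which was AGGTCA or AGTTCA or GGGTCA or GGTTCA, spacing 0 was found in 139 members (1.42%) and 0.583% of D-EPSC only regions, and spacing 2 in 82 (0.836%) and 0.426%. The spacing 0 repeat overlaps the ESRRB word, since the end of a half-site followed by AGGTCA spells it. Of the 139 members, 112 also held the ESRRB word, and without those the shares were 0.275% in members and 0.202% in D-EPSC only regions. Of the 82 with spacing 2, 20 held the ESRRB word. The interval of the spacing 2 difference (0.41 points, 0.04 to 0.84) included 0 over 200 bp, over whole regions and among the wider regions. Spacing 2 is also a spacing of the retinoic acid receptor with RXR. Its strict form, DR2, was in 0.0815% of members and 0.0524% of D-EPSC only regions, a difference of 0.03 points (-0.12 to 0.22). The strict DR1, a site of RXR pairs, was in 0.132% and 0.135%. The spacing of 5 bases, the classical response element of retinoic acid, was in 41 members (0.418%) against 0.352% of D-EPSC only regions, a difference of 0.07 points (-0.23 to 0.40). Its strict form was in 7 members (0.0713%) and in 11 D-EPSC only regions (0.0823%). Of the 7, 2 lay 32.3 and 40.1 kb from the same coding start of Tbx3, a T-box factor that sustains self-renewal of ESCs, and both are among the sequences printed above.

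The KLF, ESRRB and CTCF words were denser near the midpoint of members than at the edges of the 1 kb around it. In that 1 kb, the KLF word occurred 354 and 351 times in the 2 central steps of 100 bp and 102 and 96 times in the outermost steps, a ratio of 3.56. In D-EPSC only regions this ratio was 1.86. The ESRRB word occurred 142 times in the central 200 bp of members and 54 times in the outer 200 bp (ratio 2.63), while in the larger D-EPSC only class the counts were 86 and 78 (ratio 1.1). The CTCF core was the most central, with 319 against 16 occurrences in members and 239 against 24 in D-EPSC only regions. The octamer was central in both classes alike, with ratios of 1.80 and 1.74. The ZFP281/MAZ word was little denser at the midpoint of members, with 276 against 237 occurrences (ratio 1.16), and more so in D-EPSC only regions (ratio 1.88). The TCF/LEF word was flat in both classes, at 0.975 and 1.14. These ratios are descriptions of counts and the differences between them were not tested.

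**Figure D4:**
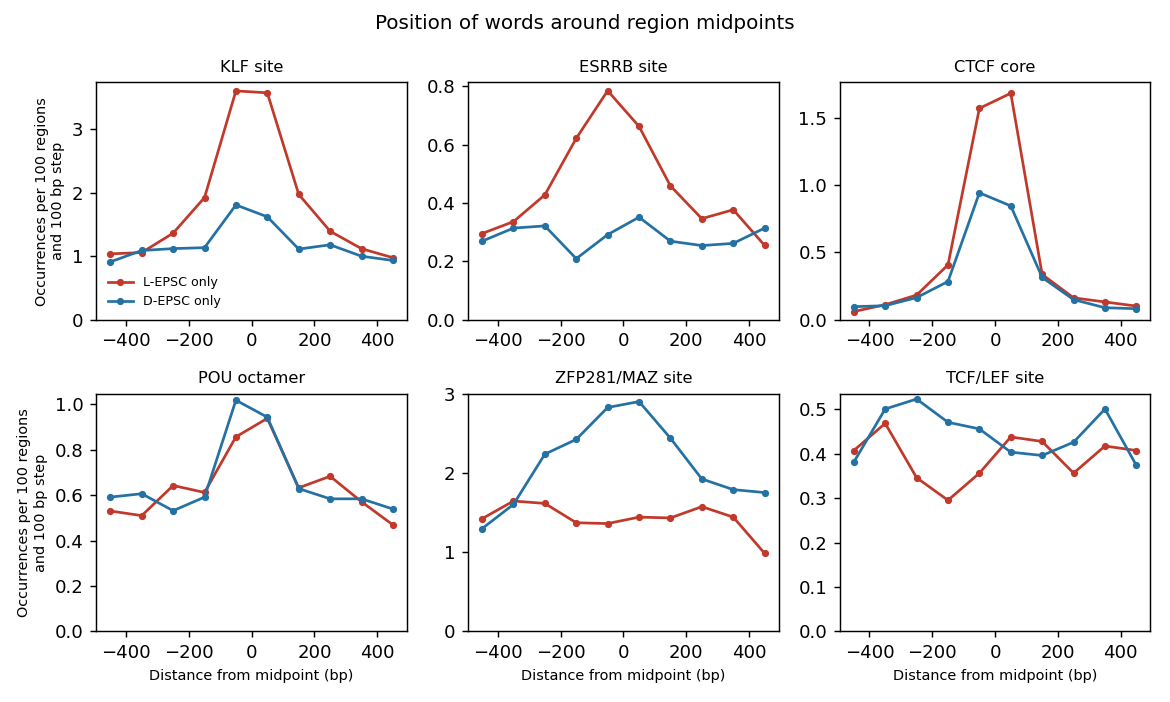
Occurrences of 6 words per 100 regions in steps of 100 bp (y axis) by distance from the midpoint in bp (x axis), for members (red) and D-EPSC only distal regions (blue). The KLF, ESRRB and CTCF words rise at the midpoint of members to 3.61, 0.785 and 1.68 per 100 regions. The ZFP281/MAZ word rises more in D-EPSC only regions than in members.

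These differences did not belong to a single range of width. In the 4 width groups cut at the quartiles of member width (bounds 142, 210 and 317 bp) the KLF word was in 8.28% to 9.97% of members and in 4.59% to 5.88% of D-EPSC only regions of the same widths. The ESRRB word was in 2.13% to 2.65% of members and 0.943% to 1.20% of D-EPSC only regions. The CTCF core was lowest in the widest group, at 2.00% of members and 1.68% of D-EPSC only regions, against 5.36% and 3.09% in the next to narrowest group. By distance from a coding start, the KLF word was in 10.5% of members 1 to 5 kb away, 9.50% of those 5 to 50 kb away and 8.87% of those beyond 50 kb (7.90 to 9.94). The CTCF core was in 5.25% (4.06 to 6.75) and 3.02% (2.47 to 3.70) of the nearest and the farthest group, and the octamer in 2.16% (1.44 to 3.21) and 3.39% (2.80 to 4.11).

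A search without a choice of factors was led by pieces of the KLF and ESRRB words, and many of the other words higher in members were rich in A and T. Of 8192 words of 7 bases, 143 (1.75%) were more frequent in members than in D-EPSC only regions and 229 (2.8%) less frequent, by intervals adjusted over all 8192. The leading word was CACACCC, in 17.5% and 12.2%, which lies within the KLF word on the opposite strand. AAGGTCA, within the ESRRB word, was in 12.9% and 8.65%. After these and words overlapping them came ATAAAAA, higher by 2.87 points, and TTAAAAA, higher by 2.84 points. Over the 143 words the median was 2 G or C bases, against 5 over the 229. AGGAATG, in 11.3% and 8.45%, shares GGAATG with the TEAD word, and AACAATA, in 6.99% and 4.26%, shares AACAAT with the SOX word, although neither the TEAD nor the SOX word itself had an interval off 0. The less frequent words were led by CCTCCCC, in 17.3% and 24%. Among them were CCACCCC, in 16.1% and 19.9%, and CACCCCC, in 11.4% and 14.9%. Both hold the GGGTG box of the KLF factors on the opposite strand, as CACACCC does, so words with this box differed in direction. Of the 143 words, 2 held the pair CG, against 46 of the 229. With D-EPSC only regions weighted to the GC content of members, 142 of the 143 were still higher in members and 227 of the 229 still lower by their point values, with no interval computed. Words rich in A and T lost much of their difference: the share in D-EPSC only regions rose with the weighting from 9.66% to 11.9% for TTAAAAA and from 6.27% to 7.56% for ATAAAAA, and AAATAAA, in 13.3% of members, came to 13.2%. Words of 7 bases overlap one another and are not independent.

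Few members had repeated sequence. In 130 of them (1.32%, 1.12 to 1.57), 50% or more of the sampled 31-base words occurred at 10 or more places of the genome. The share was 0.778% (0.642 to 0.942) in D-EPSC only regions, 0.741% (0.599 to 0.916) in all 3 lists and 3.93% (3.31 to 4.66) in ESC only regions. A run of 12 CA units occurred in 295 members (3.01%) and 3.70% of D-EPSC only regions. Reads of low mapping quality had been removed by the authors before peak calling in every class.

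Turning to genes, 9201 of 22342 coding genes (41.2%) had a member within 50 kb of a start, and 11345 (50.8%) had a D-EPSC only region. Most of these, 5591, had a single member, and 122 had 5 or more. The gene with most members was Dst, a cytoskeletal linker of the plakin family on chromosome 1, with 11, and 9 of them lay in its introns. It had only 1 D-EPSC only region and 8 regions of all 3 lists within the same distance. Macf1, a related linker of microtubules and actin, had 8, and 4 D-EPSC only regions. Tiam1, an exchange factor for the GTPase Rac, had 9 members and 9 D-EPSC only regions, and the polarity gene Pard3 and the nuclear receptor corepressor gene Rere had 8 each, beside 5 and 3 D-EPSC only regions. Starts of these genes were spread over 252 to 384 kb, so that their windows were long. Tmeff1, which encodes a transmembrane protein with follistatin-like domains, also had 8 members and no D-EPSC only region, with starts spread over 51.8 kb. The 4 others of the first 10, 2300002M23Rik, 4930533K18Rik, C130026I21Rik and Cdsn, had 7 each, beside 3, 0, 6 and 3 D-EPSC only regions in that order.

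**Figure D5:**
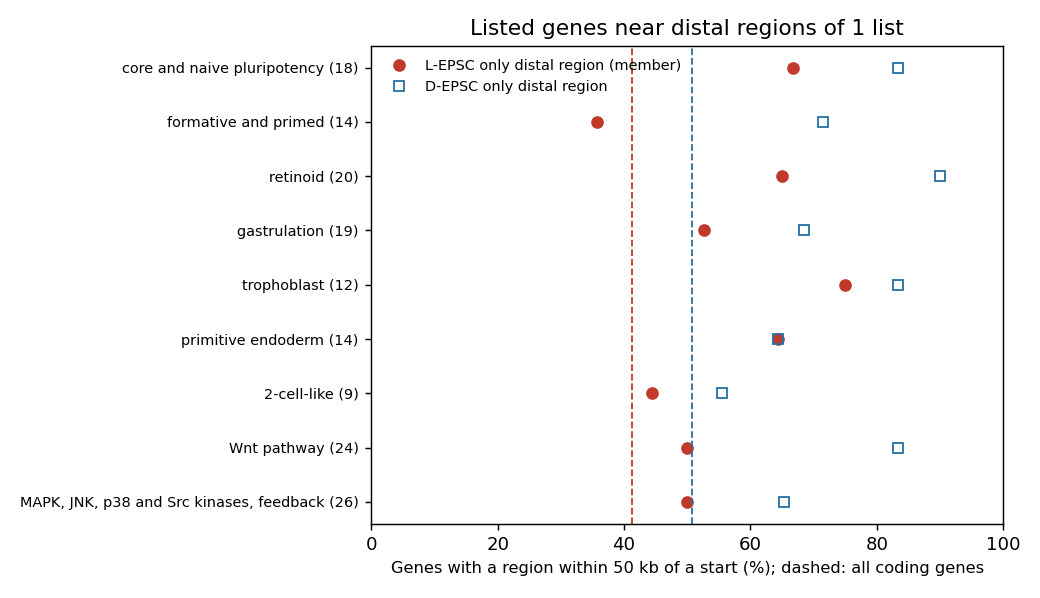
Share of the genes of 9 lists (y axis, number of genes in the annotation in brackets) with a member (red dots) or a D-EPSC only distal region (blue squares) within 50 kb of a coding start (x axis, percent). Dashed lines give the shares over all coding genes, 41.2% for members and 50.8% for D-EPSC only regions, and the formative and primed list is the 1 list with its red dot left of the red line.

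Of the 18 genes of core and naive pluripotency, 12 (66.7%) had a member within 50 kb, beside 41.2% of all coding genes, and 15 had a D-EPSC only region. Pou5f1, which encodes Oct4, had 6 members at 20.2 to 38.4 kb from its starts, all in a gene-dense stretch of chromosome 17 that also holds Cdsn and 2300002M23Rik, so that members there were counted for several genes. Of these 6, 2 held the ESRRB word and 1 the octamer. Tbx3 had 5 members, 29.3 to 42.0 kb away, 2 with a DR5 and 1 of these also with a CTCF core. D-EPSC only regions numbered 4 at Pou5f1 and 4 at Tbx3. Esrrb and Tfcp2l1 had 2 members each, and 1 and 2 D-EPSC only regions. Of the 14 formative and primed genes, which are active after implantation, 5 (35.7%) had a member and 10 a D-EPSC only region, and Zic2 and Zic5 shared the same member.

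Of the 20 retinoid genes, 13 (65%) had a member and 18 (90%) a D-EPSC only region, beside 41.2% and 50.8% of all coding genes. Rara, which encodes a retinoic acid receptor, had 5 of each, and the closest member lay in an intron 1.34 kb from a start. Dhrs3, whose product reduces retinal and so limits retinoic acid, had 4 members and 1 D-EPSC only region, and 3 of the members lay in its introns. None of the 9 members of these 2 genes held a strict DR5. Of the 24 Wnt pathway genes, 12 (50%) had a member, near the 41.2% of all genes, and 20 (83.3%) a D-EPSC only region. Fzd7, a Wnt receptor gene, had 4 members and 3 D-EPSC only regions. Tcf7l2, a factor that acts with beta-catenin, and Lgr4, a receptor of R-spondins, had 3 each, with no D-EPSC only region at Tcf7l2 and 3 at Lgr4. Of the 26 genes of MAPK, JNK, p38 and Src signalling, the kinases that the L-EPSC inhibitors act on and their feedback genes, 13 (50%) had a member, again near the share of all genes, and 17 (65.4%) a D-EPSC only region. They were led by the Src family kinase gene Fyn and the feedback inhibitor gene Spry4 with 3 each, and D-EPSC only regions were more numerous at both, with 6 at Fyn and 5 at Spry4.

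Of genes that mark other lineages, 10 of 19 gastrulation genes (52.6%), 9 of 12 trophoblast genes (75%), 9 of 14 primitive endoderm genes (64.3%) and 4 of 9 genes of 2-cell-like cells (44.4%) had a member. Lefty2, which encodes a Nodal antagonist, had 4, beside 2 D-EPSC only regions. Among trophoblast genes, the factors Elf5 and Gata3 had 2 members and 1 D-EPSC only region each. Cdx2 and Tfap2c had 1 member each, beside 2 and 3 D-EPSC only regions. The basement membrane genes Col4a2 and Sparc of the primitive endoderm list had 3 each, and so did Dppa4, which acts with Dppa2 on 2-cell genes. D-EPSC only regions numbered 4 at Col4a2 and 1 each at Sparc and Dppa4. In each of the 9 lists the number of genes with a D-EPSC only region was as large as that with a member or larger, and over all coding genes the shares had the same order, 50.8% and 41.2%. The lists are short, some listed genes share members, and the lists were not tested against other genes.

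Examples of members near the listed genes show where the words lay. They were taken from Pou5f1, Tbx3 and Tcf7l2 after the words were known, and capitals mark the word.
Pou5f1 member with the ESRRB word, chr17:35622858-35622896: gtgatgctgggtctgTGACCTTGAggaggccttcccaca
Pou5f1 member with the octamer, chr17:35676557-35676594: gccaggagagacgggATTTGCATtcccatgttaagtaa
Tbx3 member with the CTCF core, chr5:120163058-120163099: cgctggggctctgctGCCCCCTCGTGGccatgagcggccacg
Tcf7l2 member with the CTCF core, chr19:55952315-55952356: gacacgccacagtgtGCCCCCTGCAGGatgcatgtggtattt

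Of the 8 widest members, 7 are described here, from 1153 to 1802 bp. The widest, chr1:111224082-111225883, lay between genes 654 kb from the nearest coding start, that of the cadherin gene Cdh7, and the nearest peak of another list was 653 kb away. Next came chr1:132142312-132143744 (1433 bp, 177 kb from Daf2), chr4:16557774-16559178 (1405 bp, 468 kb from Ripk2) and chr14:16976786-16978061 (1276 bp, 98.4 kb from Oxsm), all between genes. The last of these had peaks of both other lists 1.12 and 1.16 kb away. The member chr1:191673583-191674735 lay in an exon of Ptpn14, 3.92 kb from a start. The other two were chr7:34820526-34821691 near Abpa and chr13:44504048-44505200, 320 kb from Jarid2. None of the 7 held a KLF or ESRRB word or a CTCF core in the central 400 bp, and 6 of the 7 lay between genes. In the widest, 24.3% of the sampled 31-base words of the central window occurred at 10 or more places of the genome, and in the member near Abpa 29.7%.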

How the data were processed

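ATAC-seq libraries of 3 cell states, with 2 technical replicates each, had been trimmed (Trim Galore 0.6.3), aligned to mm9 (Bowtie2 2.3.5), filtered for mapping quality (SAMtools 1.10) and called with MACS by the authors, as their notes and methods say. How replicates were combined, and whether duplicates were removed or cut sites shifted, is not given in the sources used here; a shift would move edges by a few bases, and duplicates and depth would change which weak peaks were called. The deposited files give the chromosome, start, end and name of each peak.

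Sequence and genes came from NCBIM37 (mm9) and GENCODE M1, and every peak end lay within its chromosome lengths. Shares have 95% Wilson intervals, medians order-statistic intervals and differences Newcombe intervals, all for counting error only. The level of the word intervals was adjusted over 148 comparisons. Repeated sequence was measured with 31-base words sampled every 10 bp and counted in the genome, since no repeat annotation was used. The analysis, tested on simulated data, used pysam 0.24.0, scipy 1.17.1, numpy 2.4.6 and Python 3.11.15. The members, gene lists, words and tests were chosen with earlier results of these data known. Named were the 8 widest members (1 is not reported here), the 10 genes with most members (ties by symbol), up to 6 members with a DR5 and up to 3 genes per list; Esrrb, Tfcp2l1, Zic2, Zic5, Cdx2, Tfap2c and the printed examples of KLF, ESRRB and CTCF words were chosen after their values were seen. No sequence was printed from exons beyond 30 bases. Of the listed genes, Tfcp2l1 and Tfap2c were matched by older symbols, and Usp17l1, Tcstv1 and Tcstv3 were not analysed here.

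Words were searched without mismatch on both strands. They were the POU octamer (ATTTGCAT), OCT-SOX composite (CNTTGTNATGCAAA), SOX site (CCATTGTT), ESRRB site (TCAAGGTCA), KLF site (GGGTGTGG), TFCP2L1 repeat (CCAGNNNNNNCCAG), PRDM14 site (GGTCTCTAA), STAT site (TTCCNGGAA), TCF/LEF site (ATCAAAGG), DR1, DR2 and DR5 (AGGTCA repeated after 1, 2 or 5 bases), TEAD site (CATTCCA), AP-1 site (TGANTCA), FOX site (TGTTTAC), TFAP2 site (GCCTNAGGC), ZIC site (CCTGCTGTG), ETS site (ACCGGAAG), SP site (GGGGCGGGG), ZFP281/MAZ site (CCCCTCCCC), CTCF core (CCNNNAGGGGGC), REST word (TTCAGCACC), NRF1 site (GCGCATGCG), RONIN/GFY site (ACTACAATT), RFX site (GTTGCCATG), NFY site (CCAATCAG), E-box (CACGTG) and the site of GATA factors, which is AGATAAG. The ESRRB word holds the half-site of the direct repeats. These words simplify the matrices of motif tools, and a match is not a bound site.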

Additional observations from a re-analysis of the deposited data

How the results depend on the processing

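The number of members depended most on how strict the lists were. It was 9286 to 10978 when peaks within 500 bp were merged, when 100 bp had to be shared, or under the other distances from starts, but 4992 with the widest 28965 peaks of each list and 4656 with the widest 50%. Of the original members, 31.4% and 19.5% were among these. The median width was 205 bp when 100 bp had to be shared, the median GC content was 50.8% over whole regions and 50.5% over 200 bp, 4737 genes had a member within 20 kb and 13401 within 100 kb, and repeated sequence made up 4.21% of members at 2 or more places and 0.224% at 100 or more. The intronic share was 45.0% and 45.5% under the other definitions of distal. Between 5 and 8 words and spacings separated members from D-EPSC only regions under 5 alternatives (other windows, GC weighting, wide regions or wider merging), and all 7 kept their direction. The KLF, ESRRB, SP and ZFP281/MAZ words and the repeat with spacing 0 kept their intervals off 0 in each; the spacing 2 repeat lost it over 200 bp, over whole regions and at or above the median width, where the CTCF core lost it too (0.93 points, -0.09 to 2.05). The TEAD word was higher in members over 200 bp (1.02 points), the RFX word lower over 200 bp and whole regions, and the TFCP2L1 repeat lower over whole regions. A further 2 alternatives chosen after seeing the data, without the commonest exact widths and without repeated sequence, left all 7 called.

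No paired analysis was possible because the 2 technical replicates of each state were combined in 1 list, and for the same reason the fit without a replicate was not run. Depth is unknown, and regions just under the calling threshold in the other states cannot be told apart from closed ones.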

Other observations

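In the 413 members whose sequence was mostly present at 2 or more places of the genome, other words were frequent than in the 9401 with unique sequence. The octamer was in 34 of them (8.23%) against 2.61% of unique members, and the NFY word in 30 (7.26%) against 2.04%. The ESRRB word was in 3 (0.726%) against 2.53%, and the CTCF core in 3 (0.726%) against 4.04%. In D-EPSC only regions the octamer was in 4.37% of repeated and 2.95% of unique windows. Copies of 1 element share their sequence, so these windows are not independent, and the differences were not tested.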
